A study of Mus musculus with 16 samples.

Results

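Lymphatic vessels drain fluid and immune cells from injured tissue, and the expression of 7 genes of the lymphatic endothelium was examined here in healing flexor tendon. They were Mmrn1, Flt4, Prox1, Lyve1, Pdpn, Vegfc and Reln, 7 of the 49568 gene symbols counted. The genes were selected by name, and Mmrn1 was chosen by its readout in these libraries, because it had counts in injured C57 tendon and no counts in MRL tendon, so its values are given as a description without a test. Tendons came from young adult male mice of the strains C57BL/6J (C57), a common inbred laboratory mouse, and MRL/MpJ (MRL), an inbred mouse known for healing several tissues with little scarring. The deep digital flexor tendon of a hind digit was partially lacerated and collected 7 days post injury (dpi), and uninjured tendons served as controls, with 4 animals in each of the 4 groups of strain and injury and 1 library from each animal. The mice carried no transgene, and the operated animals received anaesthesia and postoperative analgesia. The tissue was taken whole, so each value is an average over tenocytes, sheath, vessels, nerves and infiltrating cells.

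Lymphatic endothelial cells arise from venous endothelium under the transcription factor PROX1, and they sprout toward the growth factor VEGF-C, which they sense through the receptor VEGFR-3, the product of Flt4. Their surface carries the hyaluronan receptor LYVE-1 and the mucin-type glycoprotein podoplanin, the product of Pdpn. Multimerin 1 (Mmrn1) and reelin (Reln) are secreted glycoproteins that lymphatic endothelium makes. Most of these genes are also used elsewhere. Multimerin 1 is stored in platelets, LYVE-1 is carried by tissue-resident macrophages, podoplanin by fibroblasts and keratinocytes, PROX1 by muscle cells among others, and VEGF-C is made by fibroblasts and macrophages.

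Libraries held from 12552424 to 23741648 counts, and the injured MRL libraries, with 18524170 to 23741648, were the deepest. A count of 3, taken as the floor of detection, equalled 0.128 to 0.237 CPM, the count per 1e+06 counts of a library whose size was adjusted by the TMM method. Of the libraries, 2 went against their strain labels. Among the injured libraries, 12 genes had at least 30 counts in every C57 library and at most 3 in every MRL library, and 38 genes had the reverse pattern. The library labelled C57 uninjured replicate 4 had at least 10 counts for 1 of the 12 genes and for 36 of the 38, whereas the other 3 uninjured C57 libraries had 11 to 12 and 0. The library labelled MRL uninjured replicate 4 had 12 of the 12 and 0 of the 38, compared with 1 to 3 and 37 to 38 in the other 3 uninjured MRL libraries. Both were kept in the groups of their labels, and the tests of the members against uninjured tendon are also given without them. The library labelled C57 uninjured replicate 4 also stood apart by a summed level of 79576 CPM for 12 epidermal genes (at most 945 CPM in the other 15 libraries), and the injured C57 library BI-181 by 69410 CPM for 12 skeletal muscle genes (at most 1976 CPM elsewhere).

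The expression of Mmrn1 was found only in injured C57 tendon. Mmrn1 lies on the plus strand of chromosome 6 (GRCm38, from 60924976 to 60989378). It had 29 counts in BI-181, 26 counts in BI-183, 92 counts in BI-184 and 68 counts in BI-185, and 0 counts in each of the other 12 libraries. On the CPM scale these were 1.78, 1.61, 5.93 and 4.84, a mean of 3.54 ± 2.18 CPM (SD, n = 4). Against the floor of 3 counts per library, the mean level in injured C57 tendon was at least 17.3-fold higher than in uninjured C57 tendon and at least 25.2-fold higher than in injured MRL tendon. These are lower bounds, they describe the pattern by which the gene was chosen, and they do not rest on the libraries labelled uninjured replicate 4, since all 8 uninjured libraries were at 0.

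Flt4, which encodes the receptor for VEGF-C and VEGF-D, had nearly the same distribution as Mmrn1 across the libraries. It lies on the plus strand of chromosome 11 (49609263 to 49652739). In injured C57 tendon Flt4 had 3.31 CPM in BI-181, 1.11 in BI-183, 6.64 in BI-184 and 3.84 in BI-185, and all 4 values lay above every other library. In uninjured C57 tendon it had 0.600 CPM in replicate 1, 1 count in the library labelled replicate 4 and none in the other 2. In MRL tendon its only counts were 8 in the library labelled uninjured replicate 4, which carries the strain-restricted genes of C57, and 1 in BI-272. Injured MRL tendon thus had 1 count of Flt4 in 4 libraries and injured C57 tendon had 229, a ratio of 318 after adjustment for library size (95% exact interval 56.4 to 12598, for counting error only). In a bulk sample, fewer cells of a type and less RNA per cell cannot be told apart.

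The regions upstream of these 2 genes are shown because the 4 injured C57 libraries had the highest counts of both. They are RefSeq promoter sequences of GRCm38.p6 in the direction of the gene, from 250 bases before to 50 bases after the transcript start, at chr6:60944067-60944366 on the plus strand for Mmrn1 and chr11:49609429-49609728 on the plus strand for Flt4. The RefSeq starts of both genes lie inside the GENCODE genes, not at their first bases. Such a sequence was at hand for 6 of the 7 genes. Capitals mark a searched motif.
Mmrn1: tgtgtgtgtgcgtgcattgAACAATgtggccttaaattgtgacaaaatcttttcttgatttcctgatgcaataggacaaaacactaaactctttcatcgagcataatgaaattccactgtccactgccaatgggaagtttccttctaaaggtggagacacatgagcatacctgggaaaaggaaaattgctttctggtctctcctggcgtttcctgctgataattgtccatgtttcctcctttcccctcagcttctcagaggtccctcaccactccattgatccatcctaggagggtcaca
Flt4: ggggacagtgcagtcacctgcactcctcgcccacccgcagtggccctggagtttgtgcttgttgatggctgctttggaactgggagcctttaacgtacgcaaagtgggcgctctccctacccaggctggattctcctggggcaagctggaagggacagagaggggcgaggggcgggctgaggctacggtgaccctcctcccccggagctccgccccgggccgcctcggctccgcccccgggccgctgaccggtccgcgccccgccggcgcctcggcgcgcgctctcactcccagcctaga
A set of 4 short motifs of factors that act in endothelium was searched on both strands. The motif AACAAT, bound by SOX factors, began at position -231 of Mmrn1, and it occurs in 10.7% of the 32851 promoters of this length. The motif of ETS factors that was searched, AGGAAG, occurs in 35.4% of promoters and was not found in Mmrn1 or Flt4. The same held for the motif of GATA factors, searched as AGATAA, which occurs in 11.2% of promoters. The motif of nuclear receptors such as the product of Nr2f2 was searched as AGGTCA. It occurs in 16.3% of promoters, was not found in Mmrn1 or Flt4, and was found in Pdpn. A match of 6 letters is a description of the sequence only.

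**Figure D1:**
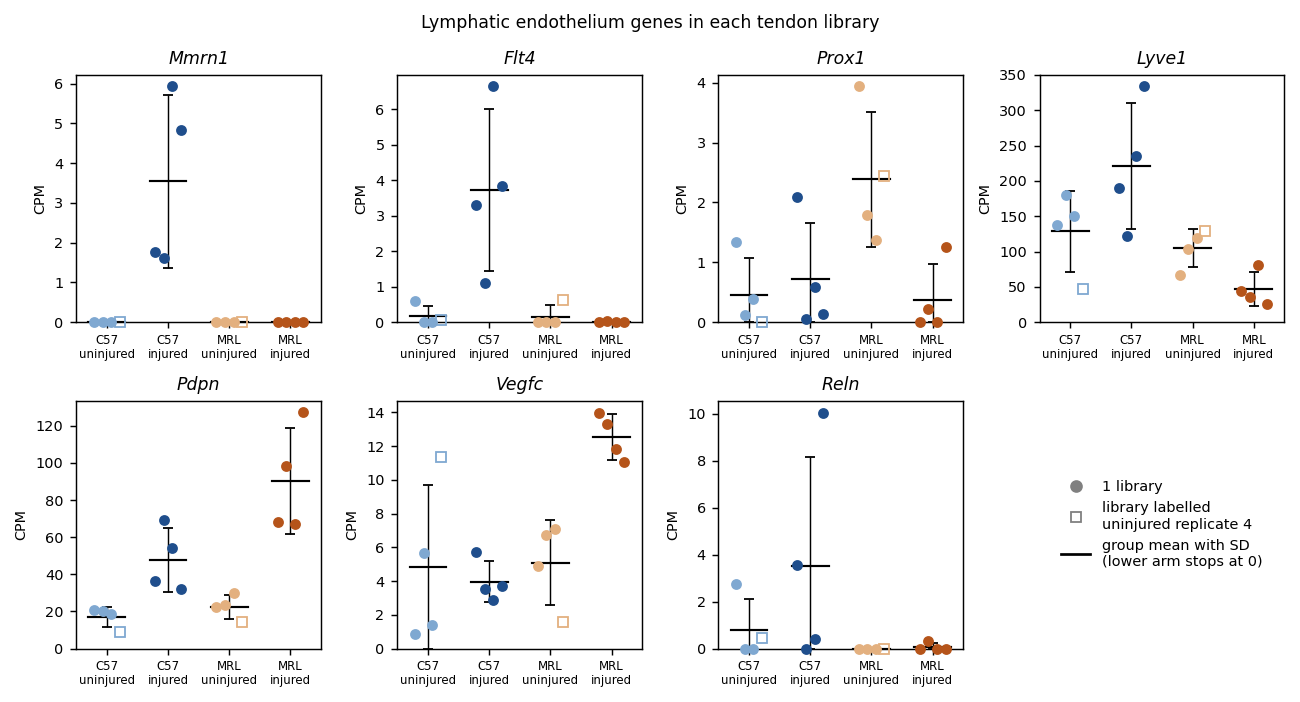
Expression of the 7 genes in CPM (y axis, linear, its own scale for each gene) in the 4 groups (x axis). Each point is 1 library, open squares are the libraries labelled uninjured replicate 4, black lines are group means and bars are SD (n = 4), and Mmrn1 is above 0 in injured C57 tendon alone.

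Across the 16 libraries the log2 CPM of Mmrn1 correlated with that of Flt4 at Pearson's r = 0.91, which ranked Flt4 6th among 15947 genes. The genes most like Mmrn1 were Gm20707 (r = 0.95), Wscd1 (r = 0.95) and Lrrc4c (r = 0.94), and those most like Flt4 were Lrrc4c (r = 0.93), Tmem196 (r = 0.92) and Mmrn1 itself. The points share libraries that fall in 4 groups, and the value for Mmrn1 rests on 12 libraries at 0 and 4 above it. Mmrn1 was chosen by this pattern, so its correlations only describe which genes were high in the same libraries. Prox1 did not have this pattern, with r = -0.08 to Mmrn1. Lyve1 had r = 0.63 and ranked 476th.

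**Figure D2:**
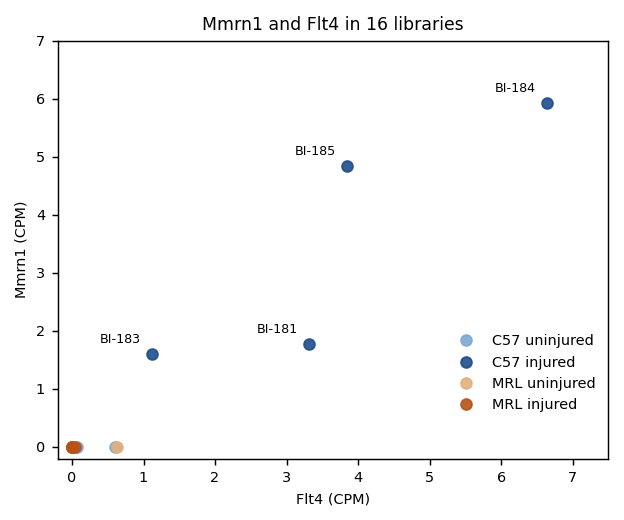
Mmrn1 (y axis, CPM) against Flt4 (x axis, CPM), with 1 point for each of 16 libraries coloured by group. The 4 injured C57 libraries lie apart, from 1.61 to 5.93 CPM of Mmrn1 and 1.11 to 6.64 CPM of Flt4, and the other 12 lie on the axis of Flt4 at 0.632 CPM or below.

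The strains were first compared directly at 7 dpi, a comparison that does not use uninjured tendon. Of the 6 members other than Mmrn1, 4 passed the expression filter and 3 were called at a Benjamini-Hochberg adjusted p below 0.05 with an absolute log2 fold change over 1 (edgeR's quasi-likelihood test). Flt4 and Lyve1 were lower and Vegfc was higher in injured MRL than in injured C57 tendon. Over all 14626 genes tested 3.43% were called, and 1.88% were called lower. Prox1 and Reln were too low to be tested. The log2 fold change of Flt4 was -7.70 (standard error, SE, 1.11, adjusted p = 0.0057, edgeR), and because it rests on 1 count in injured MRL tendon its size depends on how edgeR treats counts near 0. Flt4 passed the expression filter through the injured C57 libraries alone, so it could only be called lower in MRL tendon. The call was kept in each fit that left out 1 library, which describes the same counts and adds no support.

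Lyve1, on the minus strand of chromosome 7 (110850607 to 110863239), encodes the hyaluronan receptor used to stain lymphatic capillaries. In injured C57 tendon it had 190 CPM in BI-181, 122 in BI-183, 236 in BI-184 and 335 in BI-185. In injured MRL tendon it had 43.8 CPM in BI-270, 36.2 in BI-272, 81.3 in BI-274 and 26.1 in BI-275, and the groups did not overlap. The log2 fold change of injured MRL over injured C57 tendon was -2.27 (SE 0.40, adjusted p = 0.014, edgeR). Without BI-272 it was -2.12 and the call was lost (adjusted p = 0.056, edgeR). The means were 221 ± 89.2 CPM and 46.9 ± 24.1 CPM (SD, n = 4).

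Resident macrophages also carry LYVE-1, and their listed genes had log2 fold changes of the same sign between the injured strains. All 6 genes of that list (Cd163, Mrc1, Folr2, Timd4, F13a1 and Cbr2) had negative log2 fold changes between the injured strains (median -1.15, compared with -0.85 for the other lymphatic genes), none was called (without BI-181 Mrc1 was, at -1.12, adjusted p = 0.048, edgeR), and their summed level was 559 to 1830 CPM in injured C57 and 309 to 595 CPM in injured MRL tendon. The part of resident macrophages in the values of Lyve1 was not tested. The genes most like Lyve1 across the 16 libraries were Olfml2a (r = 0.93), 4930458D05Rik (r = 0.92) and Gm6548 (r = 0.90).

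Vegfc, the lymphangiogenic ligand, went the other way. It lies on the plus strand of chromosome 8 (54077606 to 54187096). Injured MRL tendon had 14.0 CPM in BI-270, 13.3 in BI-272, 11.8 in BI-274 and 11.05 in BI-275. In injured C57 tendon it had 5.70 CPM in BI-181, 3.52 in BI-183, 2.90 in BI-184 and 3.70 in BI-185. The ligand was thus higher in each injured MRL library than in any injured C57 library, with a log2 fold change of 1.62 (SE 0.34, adjusted p = 0.028, edgeR). The call was lost without BI-183, BI-184, BI-185, BI-270 or BI-272, with log2 fold changes of 1.495 to 1.63 and adjusted p between 0.059 and 0.088 (edgeR).

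Pdpn, on the minus strand of chromosome 4 (143267431 to 143299564), had 68.4 CPM in BI-270, 98.3 in BI-272, 67.3 in BI-274 and 127 in BI-275. In injured C57 tendon BI-181 had 36.1 CPM, BI-183 had 69.3, BI-184 had 54.3 and BI-185 had 32.0. The groups overlapped, since BI-183 lay above 2 of the injured MRL libraries. The log2 fold change was 0.89 (SE 0.30, adjusted p = 0.13, edgeR).

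**Figure D3:**
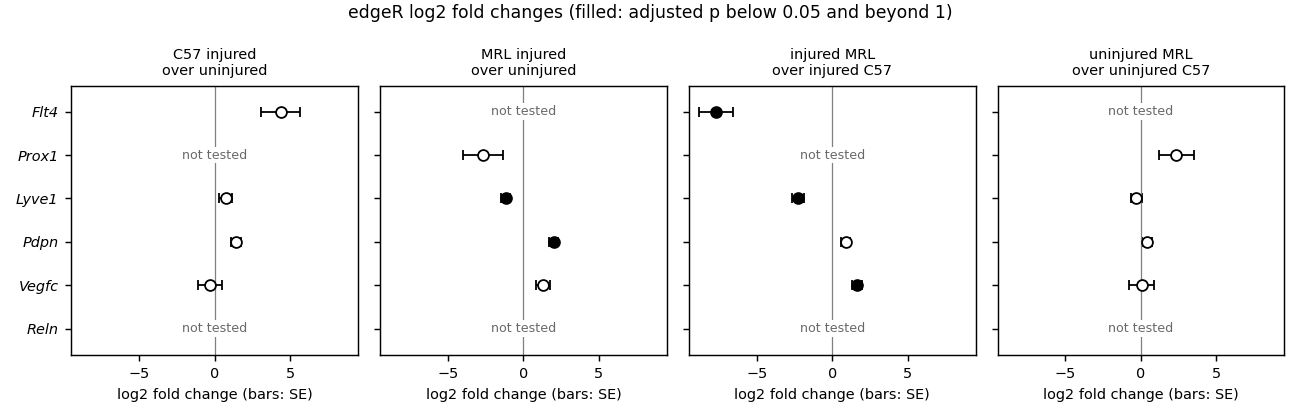
Log2 fold changes (x axis) of the 6 members other than Mmrn1 (y axis) in 4 comparisons (panels), from edgeR fits of 8 libraries each, with bars of 1 SE. Filled points were called, among them Flt4 at -7.70, Lyve1 at -2.27 and Vegfc at 1.62 between the injured strains.

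Some other endothelial genes were also lower in injured MRL than in injured C57 tendon. Of 8 genes shared by blood and lymphatic endothelium, all 8 were tested and had negative log2 fold changes (median -3.03). The median over all 14626 genes tested was -0.06. The 4 called lower were Pecam1, a junction protein of all endothelium (-3.75, adjusted p = 0.039, edgeR), Cldn5, a tight junction protein (-5.24, adjusted p = 0.039), Egfl7, a secreted vascular factor (-3.04, adjusted p = 0.025), and Esam, an adhesion molecule (-3.03, adjusted p = 0.014). Their summed level was 114 to 248 CPM in injured C57 and 17.6 to 41.5 CPM in injured MRL tendon. Without BI-181, Esam alone was called (-2.77, adjusted p = 0.032, edgeR) and the median was -2.80. Of 8 blood endothelial genes, 1 was called lower (Plvap, a protein of fenestrated capillaries, log2 fold change -2.41, adjusted p = 0.032, edgeR). The median of this list was -2.69. Without BI-181 none was called and the median was -2.54. The lower values were therefore measured for genes of blood endothelium as well as for Flt4, and a difference between the 2 kinds of vessel was not tested.

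Of 10 other lymphatic genes, 7 were tested and none was called in either direction, with a median of -0.85. Sox18, which acts upstream of Prox1, had a log2 fold change of -3.60 (adjusted p = 0.062, edgeR), Gata2 of -3.35 (adjusted p = 0.17, edgeR) and Nr2f2 of -0.97 (adjusted p = 0.17, edgeR). Ccl21a, a chemokine gene of lymphatic vessels that belongs to a family of near-identical copies, had 0 counts in every library, so it could not be used as a marker here. In the pathway of VEGF-C and VEGF-D, 9 listed genes were tested and none was called. Those with the largest absolute changes were the angiopoietin axis genes Tie1 (log2 fold change -3.53, adjusted p = 0.056, edgeR), Angpt2 (-3.49, adjusted p = 0.084) and Tek (-3.18, adjusted p = 0.084). Vegfd, the other ligand of VEGFR-3, had a log2 fold change of 0.09 (adjusted p = 0.91, edgeR).

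**Figure D4:**
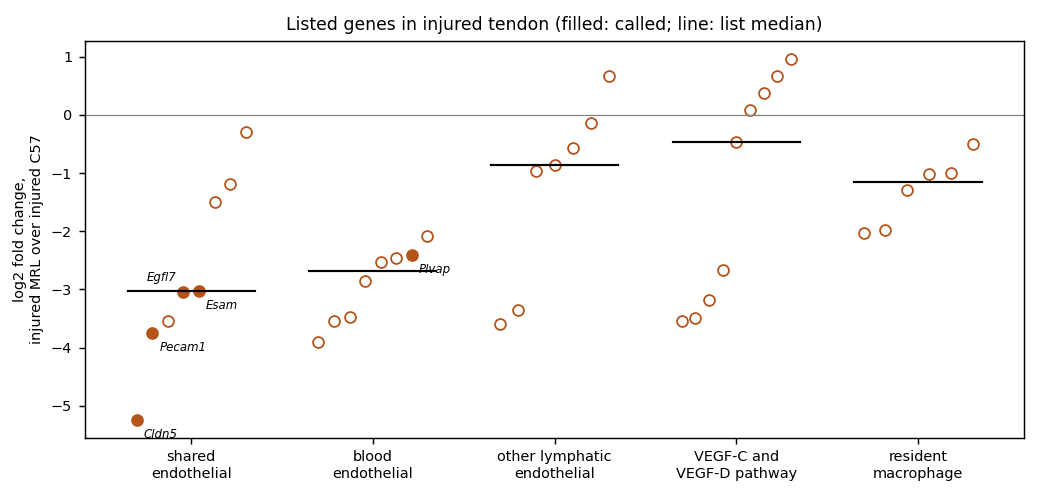
Log2 fold change of injured MRL over injured C57 tendon (y axis) for each tested gene of 5 lists (x axis), where filled points were called and lines are list medians. The medians are -3.03 for shared endothelial, -2.69 for blood endothelial and -0.85 for other lymphatic genes.

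Within C57 tendon, injury was compared with no injury. None of the 4 members tested was called in the edgeR fit, in which 1.07% of 14424 genes were called (155 genes). Flt4 had a log2 fold change of 4.36 (SE 1.31, adjusted p = 0.17, edgeR), with all 4 injured libraries above the uninjured ones. It passed the expression filter through the injured libraries alone, so its change could only be upward. For Pdpn the log2 fold change was 1.43 (SE 0.34, adjusted p = 0.085, edgeR). With DESeq2, which called 907 genes over the whole table, both were called, Flt4 with an adjusted p of 0.0040 and Pdpn with 0.0030. Without the library labelled C57 uninjured replicate 4, Flt4 was at 4.10 (adjusted p = 0.11, edgeR), Pdpn was called (log2 fold change 1.22, adjusted p = 0.035, edgeR), and the number of genes called over the whole table was 750.

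In uninjured C57 tendon Pdpn had 20.9, 20.0 and 18.4 CPM in replicates 1 to 3 and 9.11 CPM in the library labelled replicate 4, so each injured C57 library, at 32.0 CPM or more, lay above them. Lyve1 had 138, 180 and 150 CPM in uninjured replicates 1 to 3 and 46.5 CPM in the library labelled replicate 4, and its injured and uninjured values overlapped (log2 fold change 0.73, SE 0.43, adjusted p = 0.45, edgeR; 0.45 without that library, adjusted p = 0.43). Vegfc was at 0.867, 5.68 and 1.38 CPM in replicates 1 to 3 and at 11.4 CPM in the library labelled replicate 4. Its log2 fold change was -0.33 (SE 0.79, adjusted p = 0.89, edgeR) and turned to 0.54 (adjusted p = 0.71, edgeR) without that library.

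The listed genes of the VEGF-C and VEGF-D pathway had positive log2 fold changes in injured C57 tendon. That list also holds the angiopoietin axis genes Angpt1, Angpt2, Tek and Tie1, and Vegfc itself is not in it. All 9 tested genes of the VEGF-C and VEGF-D pathway were above 0 (median 1.70, compared with -0.05 over all genes tested), none was called, and the largest were Ccbe1, which helps to activate VEGF-C (3.67, adjusted p = 0.18, edgeR), Angpt2 (3.21, adjusted p = 0.20) and Vegfd (2.17, adjusted p = 0.33). Without the library labelled C57 uninjured replicate 4, 8 of the 9 were above 0 (median 1.55, with Nrp2 at -0.13) and 3 were called higher, in a fit that called 750 of 14983 genes, namely Vegfd (1.75, adjusted p = 0.026, edgeR), Angpt2 (2.79, adjusted p = 0.032) and Tie1 (1.55, adjusted p = 0.036). Of the shared endothelial genes, all 8 were above 0 and 1 was called (Ecscr, 2.03, adjusted p = 0.037, edgeR), which became 2 without that library and 0 without BI-181. The 4 relatives of multimerin 1 were also above 0, and Emilin2, an extracellular glycoprotein of the same family, had a log2 fold change of 2.40 (adjusted p = 0.061, edgeR), which was 2.07 and called without that library (adjusted p = 0.0047, edgeR). Of the resident macrophage genes, 2 of 6 were called higher (Mrc1 at 2.28 and Cbr2 at 1.99, adjusted p = 0.015 and 0.014, edgeR), and 4 without that library. The 6 pan macrophage genes had 4 called higher (median 2.58), among them Lyz2 (2.61, adjusted p = 0.012, edgeR) and Cd68 (2.56, adjusted p = 0.012), and 6 without that library. Their summed level was 556 to 1094 CPM in uninjured and 3590 to 6568 CPM in injured C57 tendon. The part of macrophages in the values of the members was not tested.

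Since multimerin 1 is a platelet protein, platelet genes were set beside it. Their summed level was 313 to 408 CPM in injured C57, 68.2 to 140 CPM in uninjured C57, 41.8 to 95.3 CPM in uninjured MRL and 114 to 272 CPM in injured MRL tendon. Most of that sum was Pf4, which macrophages also make (log2 fold change 1.79 with injury in C57, adjusted p = 0.039, edgeR). Gp6 had no counts in any library, Gp9 had at most 0.306 CPM and Treml1 at most 0.967 CPM. In injured MRL tendon Itga2b was at 8.35 ± 4.87 CPM and Ppbp at 3.199 ± 1.93, and in injured C57 tendon at 12.6 ± 3.21 and 1.63 ± 1.09 CPM (SD, n = 4). Gp1bb was at 4.10 ± 5.58 CPM in uninjured and 0.860 ± 0.141 CPM in injured C57 tendon, the 1 of 4 tested platelet genes below 0 there. After injury in MRL tendon 2 of 4 tested were called higher, Pf4 (1.40, adjusted p = 0.025, edgeR) and Ppbp, which had no counts in uninjured MRL tendon (adjusted p = 0.0091, edgeR). The part of platelets in the values of Mmrn1 was not tested.

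Within MRL tendon 2 of the 4 members tested were called after injury, Pdpn higher and Lyve1 lower, in a fit that called 7.41% of 14274 genes (1057 genes). Pdpn had 22.3, 23.5 and 30.1 CPM in uninjured replicates 1 to 3 and 14.4 CPM in the library labelled replicate 4, all below the 67.3 to 127 CPM of the injured libraries. Its log2 fold change was 2.00 (SE 0.28, adjusted p = 0.0029, edgeR), and it was called in each fit that left out 1 library, including that without the library labelled MRL uninjured replicate 4 (1.84, adjusted p = 0.0072, edgeR). The genes most like Pdpn across the 16 libraries were Ifitm3 (r = 0.96), Lxn (r = 0.95) and Srpx2 (r = 0.95). Podoplanin is also a fibroblast protein, and the summed level of 7 fibroblast genes was 14733 to 39804 CPM in injured and 7509 to 18459 CPM in uninjured MRL tendon. Most of that sum was Col1a1 and Col3a1. Of the list Col3a1 was called higher (1.15, adjusted p = 0.040, edgeR), none was without the library labelled MRL uninjured replicate 4, and 3 of the 7 log2 fold changes were below 0 (Pdgfra, Fap and Dpp4). The 6 tenocyte genes summed to 20762 to 40696 CPM in injured and 12332 to 24377 CPM in uninjured MRL tendon, mostly Col1a2, Fmod and Thbs4. Of these genes Thbs4 was called higher (1.31, adjusted p = 0.0068, edgeR), whereas 2 of the 6, the tenocyte regulators Scx and Mkx, were at -0.00093 and -0.28 and not called. The 6 pan macrophage genes had 5 called higher (median 1.99), among them Lyz2 (2.38, adjusted p = 0.0012, edgeR) and Cd68 (1.83, adjusted p = 0.0033), and 4 without the library labelled MRL uninjured replicate 4. The part of these cells in the values of Pdpn and Vegfc was not tested.

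Lyve1 had 67.5, 104 and 119 CPM in uninjured MRL replicates 1 to 3 and 129 CPM in the library labelled replicate 4. The injured values of 26.1 to 81.3 CPM overlapped them in BI-274. The log2 fold change was -1.19 (SE 0.32, adjusted p = 0.042, edgeR). Leaving out 1 library at a time removed the call in 6 of 8 cases, those without uninjured replicate 2, uninjured replicate 3, BI-270, BI-272 or BI-275 and that without the library labelled uninjured replicate 4 (-1.05, adjusted p = 0.11, edgeR). In these 6 cases it ranged from -1.19 to -0.99. Of the 6 resident macrophage genes, 5 were above 0 in this comparison (median 0.54, compared with -0.03 over all genes tested) and none was called. Their summed level was 172 to 418 CPM in uninjured and 309 to 595 CPM in injured MRL tendon. Whether these cells contribute to the values of Lyve1 was not tested.

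Vegfc had 4.92, 6.75 and 7.07 CPM in uninjured MRL replicates 1 to 3 and 1.58 CPM in the library labelled replicate 4, all below the injured MRL libraries. This separation depends on the labels. The library labelled C57 uninjured replicate 4, which carries the strain-restricted genes of MRL, had 11.4 CPM, above the 11.05 CPM of BI-275. The log2 fold change of Vegfc in MRL tendon, 1.29, was not called (SE 0.44, adjusted p = 0.085, edgeR). DESeq2, which called 1818 genes over the whole table, called it (adjusted p = 0.021). Without the library labelled MRL uninjured replicate 4 it was 1.01 (adjusted p = 0.078, edgeR). Among the genes most like Vegfc were Mrpl48-ps (r = 0.88) and RP23-288C18.3 (r = 0.87). The second ligand, Vegfd, rose in MRL tendon from 4.48 ± 1.79 CPM to 13.3 ± 5.24 CPM (SD, n = 4). Of the 8 tested genes in the VEGF-C and VEGF-D list it alone was called (log2 fold change 1.56, adjusted p = 0.042, edgeR). It was 1.84 without the library labelled MRL uninjured replicate 4 (adjusted p = 0.036, edgeR).

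Of the 4 tested partners of podoplanin 1 was called higher after injury in MRL tendon. This was Cd44, a hyaluronan receptor that binds podoplanin, with a log2 fold change of 1.14 (adjusted p = 0.0096, edgeR). Msn, a linker of podoplanin to the cytoskeleton, had 0.67 (adjusted p = 0.024, edgeR), below the fold limit, and Ezr, a linker of the same family, had -0.26 (adjusted p = 0.45, edgeR). Clec1b, the platelet receptor of podoplanin, was too low to be tested. Of the 4 relatives of multimerin 1, Emilin1 (1.12, adjusted p = 0.020, edgeR) and Emilin2 (2.01, adjusted p = 0.0039) were called higher. Without the library labelled MRL uninjured replicate 4, Emilin1 was at 0.99, below the limit. Mmrn2, the endothelial multimerin, had -0.29 (adjusted p = 0.91, edgeR), and between the injured strains -3.95 (adjusted p = 0.065, edgeR). Blood and shared endothelial genes were called in neither direction after injury in MRL tendon (0 of 5 and 0 of 8 tested).

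Prox1, the master regulator of lymphatic identity, was low in every library and did not follow Mmrn1 or Flt4. It lies on the minus strand of chromosome 1 (190118035 to 190170714), where it overlaps the antisense genes Gm28172 and Prox1os, and since the strand setting of the counting is not known their reads cannot be told apart. The group mean was highest in uninjured MRL tendon (2.39 ± 1.13 CPM, SD, n = 4), with 3.94, 1.79 and 1.37 CPM in replicates 1 to 3 and 2.45 CPM in the library labelled replicate 4. Uninjured C57 tendon had 1.33, 0.129 and 0.383 CPM in replicates 1 to 3 and none in the library labelled replicate 4. In injured C57 tendon it had 2.08 CPM in BI-181, 0.0618 in BI-183, 0.580 in BI-184 and 0.142 in BI-185, where the summed muscle genes were at 69410, 1976, 7.35 and 9.11 CPM. The part of muscle in the values of Prox1 was not tested. Injured MRL tendon had 0.226 CPM in BI-272, 1.26 in BI-275 and none in the other 2 libraries.

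After injury in MRL tendon the log2 fold change of Prox1 was -2.67 (SE 1.33, adjusted p = 0.22, edgeR), and between the uninjured strains it was 2.35 (SE 1.14, adjusted p = 0.64, edgeR). Neither was called. Without the libraries labelled uninjured replicate 4 these were -2.66 (adjusted p = 0.30, edgeR) and 1.92 (adjusted p = 0.355, edgeR). The genes most like Prox1 were Gm15530 (r = 0.82), Brd2 (r = 0.80) and Mrps31 (r = 0.78).

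Reln, which encodes reelin, was found in a few C57 libraries and hardly at all in MRL tendon. It lies on the minus strand of chromosome 5 (21884454 to 22344702) and overlaps 7 annotated genes, of which Gm10475 and Gm16110 are antisense. It had 2.74 CPM in C57 uninjured replicate 1, 3.55 in BI-181 and 10.04 in BI-185, 0.387 in BI-184, 0.455 in the library labelled C57 uninjured replicate 4 and none in the other 3 C57 libraries. In MRL tendon it had 7 counts in BI-272 (0.317 CPM) and none in the other 7 libraries. The same 3 libraries with the highest Reln had the most counts of Sox10, a transcription factor of Schwann cells, at 6.47, 11.2 and 9.89 CPM, whereas in the other 13 libraries Sox10 did not exceed 1.10 CPM. The whole list of 6 Schwann cell and nerve genes summed to 1621, 2086 and 1932 CPM there and to 480 to 1395 CPM elsewhere. Most of that sum was Pmp22, with group means of 752 to 1178 CPM, and S100b was at 24.3 to 57.5 CPM in uninjured C57 and at 71.2 to 81.6 CPM in uninjured MRL tendon. Of these genes 5 were tested between the injured strains and 1 was called lower in MRL tendon (Sox10, log2 fold change -6.12, adjusted p = 0.035, edgeR). Without BI-181 this call was lost, and the median of the 5 genes was -2.63, compared with -3.46 with it. Reln was too low to be tested in the comparisons between 2 groups of 4 libraries. Without the library labelled C57 uninjured replicate 4 it passed the filter for injury in C57 tendon, with a log2 fold change of 1.87 (SE 2.00, adjusted p = 0.65, edgeR). The part of nerve in the values of Reln was not tested. The genes most like it were Usp43 (r = 0.92), Otop1 (r = 0.89) and Msln (r = 0.86).

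**Figure D5:**
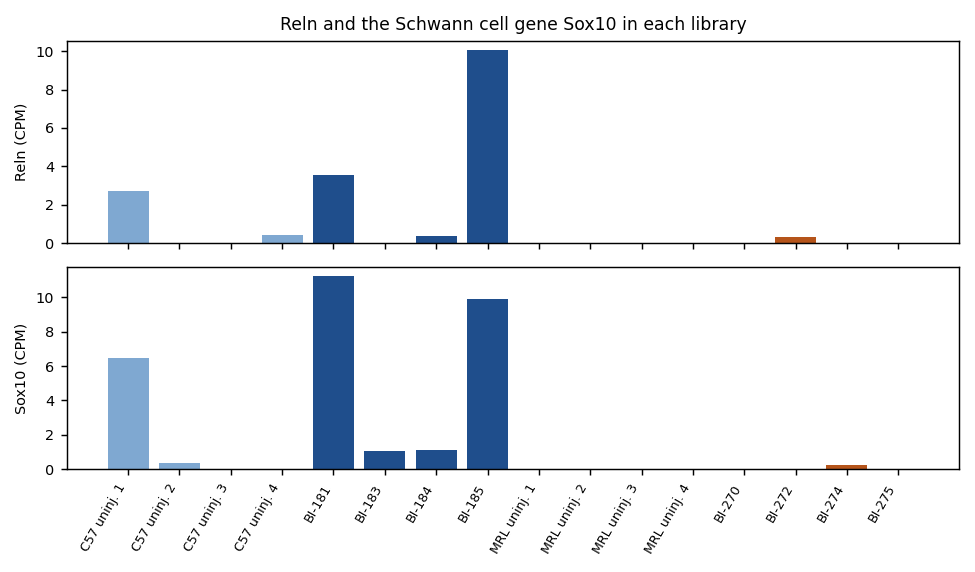
Reln (upper panel) and the Schwann cell gene Sox10 (lower panel) in CPM in each of 16 libraries (x axis), with bars coloured by group, the 8 C57 libraries on the left and the 8 MRL libraries on the right. The 3 tallest bars of each panel belong to C57 uninjured replicate 1, BI-181 and BI-185.

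Receptors and transducers of reelin were measured as well. Vldlr, a reelin receptor of the LDL receptor family, rose in MRL tendon after injury (log2 fold change 1.56, adjusted p = 0.047, edgeR), and so did Lrp8, the second receptor (2.86, adjusted p = 0.0073), which made 2 of the 2 tested genes of this list. Without the library labelled MRL uninjured replicate 4, Lrp8 kept its call (3.02, adjusted p = 0.017, edgeR) and Vldlr lost it (1.496, adjusted p = 0.10). In C57 tendon the log2 fold change of Vldlr was 3.72 (adjusted p = 0.082, edgeR) and that of Lrp8 was 0.02 (adjusted p = 0.99), with BI-181 at 242 CPM of Vldlr. Without BI-181, Vldlr was at 2.10 and called (adjusted p = 0.032, edgeR). Dab1, the adaptor behind both receptors, had no counts in MRL tendon.

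Between the uninjured strains no gene was called, 0% of 14055 tested in edgeR, where 1106 genes had an unadjusted p below 0.05 and DESeq2 called 104. Among the members, Lyve1 had a log2 fold change of -0.30 (adjusted p = 0.85, edgeR), Pdpn of 0.39 (adjusted p = 0.77) and Vegfc of 0.04 (adjusted p = 0.99). Without the libraries labelled replicate 4 of both strains, 497 genes were called over the whole table and still none of the 4 members tested, with Lyve1 at -0.70 (SE 0.19, adjusted p = 0.073, edgeR), Pdpn at 0.34 (adjusted p = 0.45) and Vegfc at 1.23 (adjusted p = 0.40). In the remaining 3 libraries of each group Lyve1 was at 156 ± 22.0 CPM in C57 and 96.9 ± 26.6 CPM in MRL tendon (SD, n = 3).

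Whether the response to injury differed between the strains was tested by an interaction term fitted to the 16 libraries. No gene was called, 0% of 15947 tested in edgeR (smallest adjusted p = 0.293), although 1939 had an unadjusted p below 0.05 and DESeq2 called 198. The log2 interaction was -7.50 for Flt4 and -1.96 for Lyve1 (adjusted p = 0.33 for both, edgeR). Pdpn had 0.51 (adjusted p = 0.70, edgeR), Vegfc 1.58 (adjusted p = 0.52) and Prox1 -3.31 (adjusted p = 0.55). Without the libraries labelled uninjured replicate 4, Lyve1 was at -1.56 (adjusted p = 0.31, edgeR), Pdpn at 0.56 (adjusted p = 0.65), Prox1 at -2.88 (adjusted p = 0.67), Reln at 1.65 (adjusted p = 0.87), Vegfc at 0.41 (adjusted p = 0.90), and Flt4, then with no counts in uninjured MRL tendon, at -2.80 with a SE of 12.7.

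The levels of the members were ordered by CPM per kb of exon, which allows genes of different length to be compared. Lyve1 and Pdpn were the most abundant. In injured C57 tendon Lyve1 had 75.7 ± 30.6 and Pdpn 26.4 ± 9.48 CPM per kb, and in injured MRL tendon the order was reversed, with 16.1 ± 8.25 for Lyve1 and 49.7 ± 15.8 for Pdpn (SD, n = 4). Vegfc followed with 1.62 ± 0.494 in injured C57 and 5.12 ± 0.551 CPM per kb in injured MRL tendon. Mmrn1 and Flt4 in injured C57 tendon, with 0.603 ± 0.371 and 0.453 ± 0.276 CPM per kb, lay within 1 SD of each other. Prox1 was at most 0.284 ± 0.134 CPM per kb, in uninjured MRL tendon, and Reln at most 0.147 ± 0.196, in injured C57 tendon.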

How the data were processed

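RNA-seq was performed by the authors on 16 flexor tendon libraries from 4 groups of 4 animals. Trimmomatic 0.36 trimmed the single-end reads (100 nt), and STAR 2.5.2b mapped them to GRCm38.p5, the same build for both strains. The submitters' processing notes also name featureCounts of Subread 1.5.0p3 and DESeq2 1.14.1, and the counting annotation and strand setting are not given in the sources used here. The authors deposited whole-number counts for 49568 gene symbols, not normalized. The labels name a TruSeq kit and the methods a low-input amplification kit, and no molecular identifiers, so intervals cover counting error only.

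From these counts, edgeR 4.0.16 (R 4.3.3) was run on the 8 libraries of each comparison, or on all 16 for the interaction, with edgeR's expression filter, TMM factors and the robust quasi-likelihood test. The Benjamini-Hochberg adjustment ran over all genes tested, and genes were called below 0.05 with an absolute log2 fold change over 1 (for the interaction, below 0.05). Standard errors were derived from the F statistic. Log2 CPM had a prior count of 2. A fold against a group at 0 was computed against 3 counts per library. Gene coordinates and exon lengths came from GENCODE M21. Uninjured libraries share replicate numbers between the strains, but same-numbered libraries were different animals.

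The members and lists were chosen with earlier results of these data known. By the rule for naming genes, the 7 members were described in every library, listed genes were named where called or where their change was largest (at most 3 a list and comparison), and the 3 genes with the highest Pearson correlation were named for each member. Some of the genes that this rule names, and a list of genes near Mmrn1, are not reported here. Endothelial, macrophage, platelet and nerve genes, the relatives of multimerin 1, and listed genes beyond that number were named after their values were seen. The lists for other cells were fibroblast, tenocyte, resident and pan macrophage, platelet, muscle, epidermal and nerve genes. The tests were checked on simulated counts. Alternatives were DESeq2 1.42.0, other size factors, no filter, each library left out, the libraries that stood apart left out together, and the replicate number as a block. The genes restricted to 1 strain, and the fits prompted by them, were added after the data had been seen.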

Additional observations from a re-analysis of the deposited data

Results flagged for a closer look

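Of 43 groups of 4 values examined (the members and the summed marker lists), 7 held a library whose gap to its nearest neighbour was above Dixon's 95% critical value for the range of the group. The chance rate of about 1 in 20 holds for normally distributed values, which CPM with libraries at 0 are not. Flt4 in uninjured MRL and Reln in injured MRL tendon had counts in 1 library alone, which gives the largest possible gap whatever the count. Among the members, Flt4 stood apart in C57 uninjured replicate 1 at 0.600 CPM. In uninjured MRL tendon its only counts, 0.632 CPM, were in the library labelled replicate 4, whose strain-restricted genes go against that label. Reln stood apart in C57 uninjured replicate 1 at 2.74 CPM, a library that also had Sox10 at 6.47 CPM, and in BI-272 at 0.317 CPM, where it had 7 counts. Among the marker lists, the epidermal genes summed to 79576 CPM and the skeletal muscle genes to 20.4 CPM in the library labelled C57 uninjured replicate 4, and the skeletal muscle genes summed to 69410 CPM in BI-181.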

How the results depend on the processing

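The bounds of Mmrn1 moved by less than the spread between replicates under all 20 alternatives run. Flt4 kept its call between the injured strains. With 1 count in injured MRL tendon it could only be called lower, so the kept call adds no support. The number of genes called after injury in C57 tendon was 155, 907 with DESeq2, 10 to 750 when 1 library was left out and 867 without both the library labelled C57 uninjured replicate 4 and BI-181. The members called there were 0, 2 with DESeq2, 0 to 1 when 1 library was left out and 1 without both libraries, and Vegfc turned from -0.33 to 0.34 without both and ranged from -0.68 to 0.54 when 1 library was left out, above 0 only without the library labelled replicate 4. In MRL tendon 1057 genes were called, 1818 with DESeq2 and 689 to 1260 when 1 library was left out, and the members called were 2, 1 without a filter on low counts, where Lyve1 was at -1.18 (adjusted p = 0.066, edgeR), and 1 to 2 when 1 library was left out. Between the injured strains 502 genes were called, 1488 with DESeq2 and 231 to 481 when 1 library was left out, with 1 to 3 members. Between the uninjured strains DESeq2 called 104, edgeR without a filter 1, edgeR with 1 library left out 0 to 3, and edgeR without both libraries labelled replicate 4 497. The log2 fold change of Vegfc there, 0.04, turned to -0.29 and -0.27 without C57 uninjured replicates 1 and 3, and to -0.09 and -0.12 without MRL uninjured replicates 2 and 3 (range with 1 library left out -0.29 to 0.94). DESeq2 called 198 genes for the interaction. Apart from the libraries left out, the cause of these changes was not tested. The replicate number as a block called 0 genes and 0 members between the uninjured strains. The numbers did not pair the libraries, since the correlations of same-numbered libraries were -0.26, 0.02, -0.10 and -0.23. Depth limits Mmrn1, Flt4, Prox1 and Reln, since 3 counts equal up to 0.237 CPM.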
